A study of Mus musculus with 4 samples.

Results

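Neurons release transmitter from synaptic vesicles, which are filled by transporters, tethered at the active zone, primed and fused with the plasma membrane when calcium enters the terminal. SNARE proteins on the vesicle and on the target membrane drive the fusion, synaptotagmins sense the calcium, and scaffolds such as RIM, Bassoon and Piccolo hold vesicles near calcium channels. After fusion, membrane and vesicle proteins are retrieved by endocytosis. The genes described here are 33 components of this cycle, chosen by function and found by symbol among 37437 Ensembl genes: synapsins, vesicle membrane proteins, synaptotagmins, SNAREs, Rab3 GTPases, active zone scaffolds, priming factors, complexins, vesicular glutamate transporters and retrieval proteins.

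Cultured mouse cortical neurons received adeno-associated virus that knocked down Ctcf (shCTCF) or, as control, the bacterial gene lacZ (shLAC), with 2 total RNA libraries per group and virus in both. No strain, age, time after infection or shRNA sequence is labelled, nor whether replicates were separate cultures, so a p-value here measures differences among libraries that may be technical only. Ctcf encodes the insulator-binding factor that anchors chromatin loops with cohesin. The comparison asked whether the release genes differed in level between the knockdown and the control.

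Levels are in TPM, a share of transcripts corrected for length, which keeps no sequencing depth, so no counting interval can be given. In shLAC replicate 2, 13 predicted genes, called satellite-like here, held 20.2% of TPM, against 0.405% to 1.86% in the other libraries. They were picked for high TPM in shLAC replicate 2 and far lower TPM in shLAC replicate 1, so that contrast was set by the choice. The name rests on no sequence examined here. In a measure with a fixed total, such a share leaves less for the other genes. Scaled TPM below is the deposited TPM divided by a median-ratio factor per library (1.04 and 0.832 in shLAC, 1.10 and 1.05 in shCTCF). A fold change is the difference of mean log2(scaled TPM + 1), shCTCF minus shLAC, from limma, with Benjamini-Hochberg adjustment over all 12816 tested genes. A further fit, called the coding fit, was restricted to 11268 protein-coding genes, each 300 nt or longer, and scaled on these alone. Ctcf stood at 8.15 and 8.80 scaled TPM in shLAC and at 3.25 and 3.39 in shCTCF, 39.1% of control (limma adjusted p = 0.0177). The culture had the neuronal genes Tubb3 and Map2 at 200 TPM or more in every library. Of 6 microglial markers 5 and of 4 endothelial markers all were below 1 TPM in every library, with the endothelial Cldn5 listed at 0.

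Most release genes lay slightly above control in CTCF knockdown, and none passed the test over all genes. Of the 33 genes, 31 reached the expression filter, and 0 of them were called higher and 0 lower by limma, beside 0.367% and 0.679% of all tested genes. The smallest limma adjusted p was 0.0798, in Rims3. At an unadjusted p below 0.05, 8 of 31 were higher and 2 lower, beside 1282 (10%) and 1285 (10%) of all 12816 tested genes. In the coding fit Syn1 and Rims3 rose and 29 genes did not pass, beside 2.58% of coding genes called higher and 3.48% called lower. The median log2 fold change was 0.08 for the release genes and -4.44e-04 for all tested genes, with 20 of 31 and 49.9% above 0. In 17 of the 31 genes (54.8%) both shCTCF values lay above both shLAC values, beside 26.9% of all tested genes, and in 5 (16.1%) both lay below, beside 26.1%. In the values as deposited the median was 0.28 and 30 of 31 were above 0, so that 10 of the 11 negative changes turned positive, where the median of all tested genes was itself 0.17. Calls in the coding fit depended on single libraries, among the release genes and among all coding genes. A fit with 1 library left out leaves a group of 1, whose spread is not measured, so the genes called in it are not listed here. The calls of Syn1 and Rims3 were both lost when either shCTCF library was left out.

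**Figure D1:**
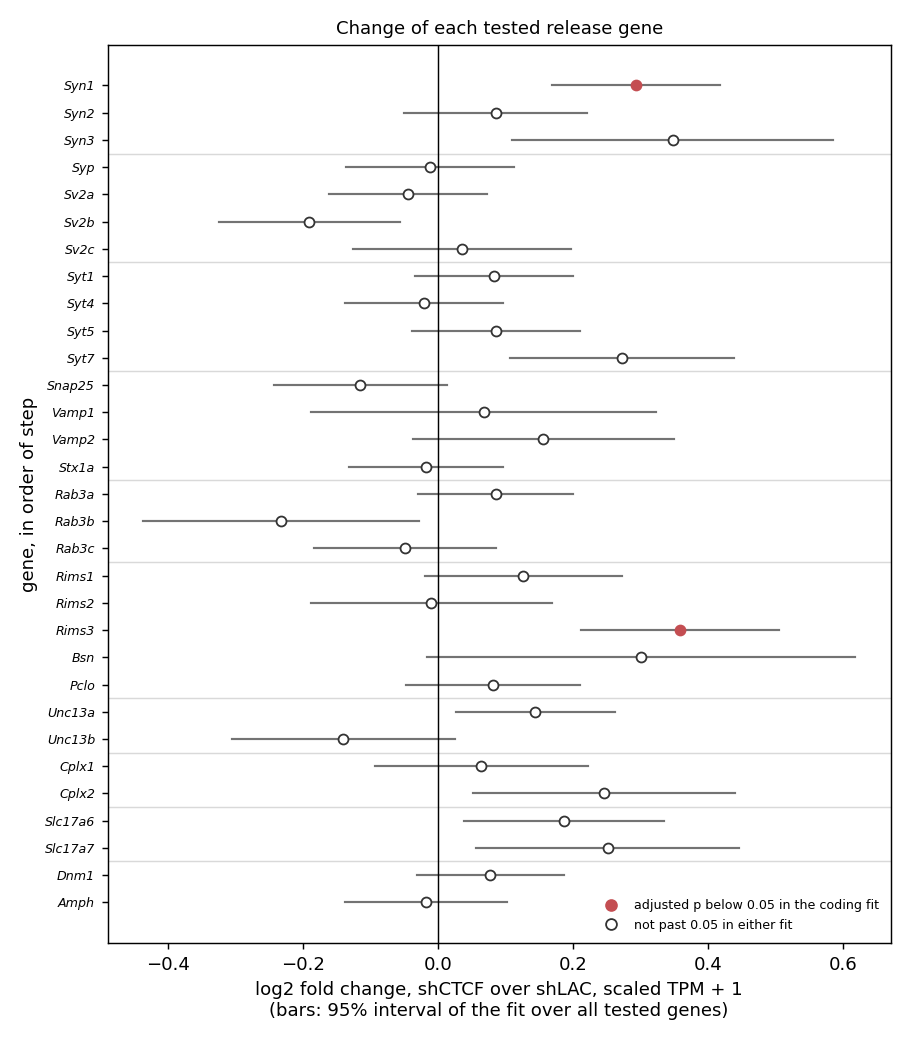
Log2 fold change of each tested release gene (x axis, shCTCF over shLAC on scaled TPM + 1) with the 95% interval of the fit over all tested genes as bars, in order of step (y axis). Rims3 and Syn1, filled, passed in the coding fit, and 11 genes lie left of 0.

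Neuronal markers outside the release genes lay on the same side, and of the lists with several tested genes only the astrocyte markers lay on the other. Of the oligodendrocyte lineage markers, 6 of 7 tested had a positive fold change, with a sum at 103% of control. All 4 proliferating markers were positive, with a sum at 105% of control. The summed scaled TPM of both lists overlapped between groups. Of 12 pan-neuronal markers such as Tubb3 and Map2, 10 had a positive fold change, with a median of 0.10, and their summed scaled TPM was 1361 and 1395 in shLAC and 1424 and 1445 in shCTCF. The release genes together summed to 1749 and 1763 scaled TPM in shLAC and to 1812 and 1809 in shCTCF, 103% of control. Of 6 excitatory markers 4 were positive, with sums of 124 and 139.8 in shLAC and 153 and 148 in shCTCF. Without Camk2a, the most abundant of them, the other 5 summed to 48.6 and 51.6 in shLAC and to 49.7 and 50.02 in shCTCF, with overlapping groups. All 5 tested of 6 GABAergic markers were positive, with sums of 182 and 174 against 189 and 190.4. The 9 astrocyte markers summed to 136 and 114 in shLAC and to 109.9 and 87.5 in shCTCF, with replicate 2 lower in each group. Of these markers, 8 had a negative fold change (7 as deposited). Groups overlapped in 6 of the 9, and both shCTCF values were lower in the other 3 (33.3%), beside 26.1% of all tested genes. Before scaling the astrocyte sums overlapped, because shCTCF replicate 1 (120.6 TPM) exceeded shLAC replicate 2 (94.9 TPM). No gene of these lists passed in the whole table after scaling. Aqp4 fell by 0.93 as deposited (limma adjusted p = 1.354e-05), in a fit that took the spread of every gene from the shared trend alone. After scaling Aqp4 had an adjusted p of 0.0858 by limma. By the coding fit Rbfox3 and Slc32a1 rose and Elavl4, Aqp4 and Slc1a3 fell. The part of these markers in the results for release genes was not tested, and in bulk RNA fewer cells of a type and less RNA per cell cannot be told apart.

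**Figure D2:**
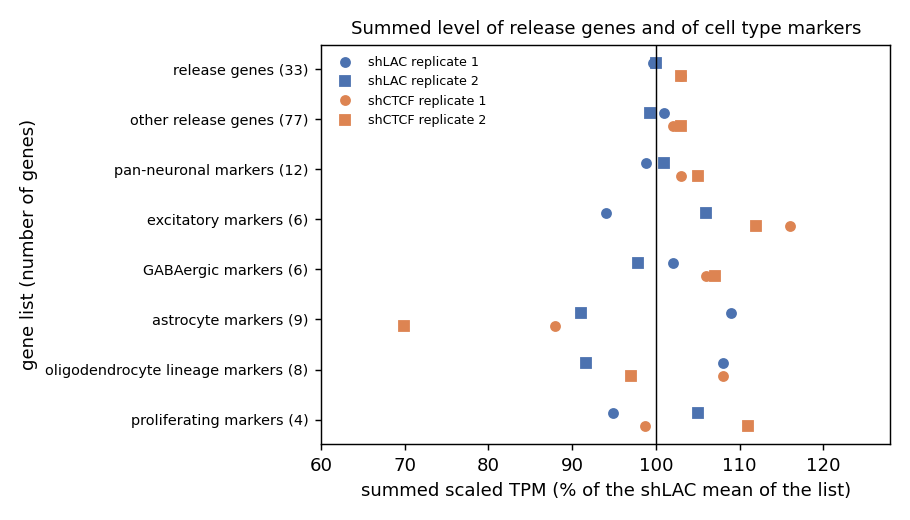
Summed scaled TPM of each gene list in each of the 4 libraries, as a percentage of the list's shLAC mean (x axis), with the number of genes listed (y axis). Release genes stood at 103% in both shCTCF libraries, while astrocyte markers stood at 87.9% and 69.9%, against 109% and 91.1% in shLAC.

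Promoter sequences are shown for Rims3 and Syn1, because these were the release genes called in the coding fit. Each is the RefSeq window from 250 bases before to 50 after an annotated start, on GRCm38.p6, in the direction of the gene. Capitals mark matches to the letters searched.

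Rims3, chr4:120854549-120854848, + strand: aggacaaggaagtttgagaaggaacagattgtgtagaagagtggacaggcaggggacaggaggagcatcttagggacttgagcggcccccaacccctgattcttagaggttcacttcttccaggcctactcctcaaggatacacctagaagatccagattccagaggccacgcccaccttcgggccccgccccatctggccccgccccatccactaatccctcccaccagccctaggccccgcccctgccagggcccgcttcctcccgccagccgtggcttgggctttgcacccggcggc

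Syn1, chrX:20920869-20921168, - strand: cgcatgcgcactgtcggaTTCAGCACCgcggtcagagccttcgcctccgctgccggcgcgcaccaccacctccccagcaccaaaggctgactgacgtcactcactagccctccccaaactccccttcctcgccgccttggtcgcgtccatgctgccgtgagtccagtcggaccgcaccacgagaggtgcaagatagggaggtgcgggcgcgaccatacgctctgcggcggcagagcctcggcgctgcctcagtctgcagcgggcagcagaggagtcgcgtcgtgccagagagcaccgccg

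The letters searched, on both strands, were AGGGGGC or AGGTGGC, 2 forms of the core of the CTCF motif, and TTCAGCACC, the left part of RE1, the element of the repressor REST, which holds neuronal genes silent outside neurons. Neither printed window held a CTCF core match. The left part of RE1 in the Syn1 window starts 232 bases before the annotated start. RefSeq windows matched 26 of the 33 genes, with 34 windows. Not matched were Syn3, Syt4, Syt5, Syt7, Snap25, Vamp2 and Rims2. A CTCF core match was in 4 of the 26 genes (15.4%), Syn2, Syt1, Pclo and Unc13a, and in 17.8% of all 27025 genes with a window. The left part of RE1 was in Syn1 and Unc13a, 7.69% of the matched release genes, and in 0.433% of all genes. The median GC content was 60.5% over the 34 windows and 52.7% over all 32851. A match is a run of letters and does not show binding.

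The levels of the release genes spanned almost the whole range of expressed genes. Snap25, a SNARE of the target membrane, was the most abundant, with a mean of 253 TPM over the 4 libraries, the 70th highest of the 11268 tested coding genes. Syp, which encodes the vesicle protein synaptophysin, followed at 234 TPM, Rab3a at 152 TPM, Syt1 at 146 TPM and Syn2 at 103.5 TPM. In each of the 4 libraries Snap25 was above Syp. Sv2a, Syt5 and Stx1a had means of 46.5, 46.1 and 47.5 TPM, and their scaled values overlapped, as did those of Cplx1 and Amph. At the low end Slc17a6, Vamp1 and Unc13b had means of 4.29, 3.89 and 2.75 TPM. Syt2 and Unc13c were below 1 TPM in every library and were not tested. Syt2, a fast calcium sensor of hindbrain and of some interneuron synapses, was at 0.297 and 0.433 scaled TPM in shLAC and at 0.264 and 0.247 in shCTCF. Unc13c, a priming factor best known from cerebellum, was at 0.825 and 0.709 in shLAC and at 0.702 and 0.647 in shCTCF.

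**Figure D3:**
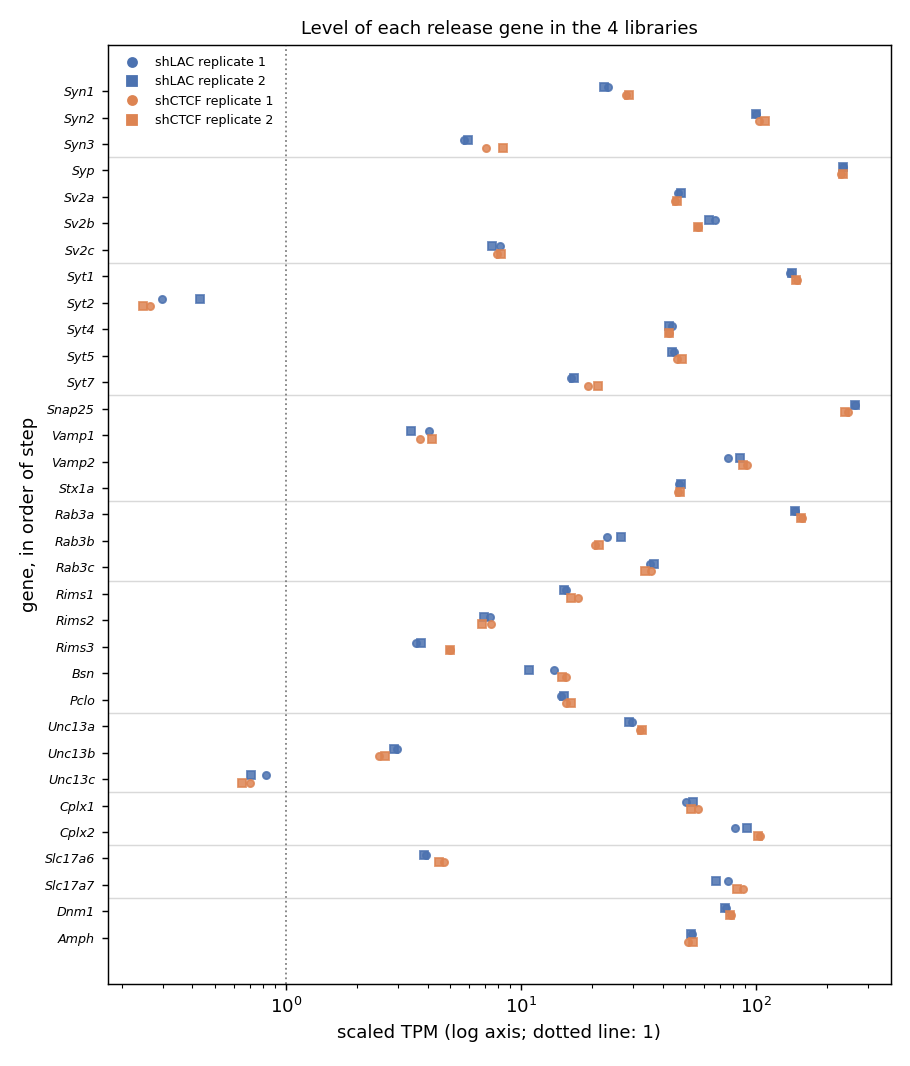
Scaled TPM of all 33 release genes (x axis, logarithmic) in each of the 4 libraries, with grey lines between steps of release (y axis). Replicates lie close together in most genes, and only Syt2 and Unc13c lie left of the dotted line at 1.

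Synapsins coat vesicles and tie them to each other and to actin, forming the reserve pool. All 3 synapsin genes had both shCTCF values above both shLAC values, as did 26.9% of all tested genes. Syn1 (ENSMUSG00000037217, chromosome X, 20860511 to 20921004, - strand, GRCm38) was at 24.4 and 18.7 TPM as deposited in shLAC and at 30.7 and 30.2 TPM in shCTCF. After scaling it was at 23.4 and 22.5 in shLAC and at 27.96 and 28.7 in shCTCF, 123% of control. The gap between groups exceeded the gap between replicates in either group. Its log2 fold change was 0.29 (standard error 0.0464, adjusted p = 0.0839 by limma) in the whole table and 0.30 (standard error 0.0491, adjusted p = 0.0228 by limma) in the coding fit. Without shCTCF replicate 1 or shCTCF replicate 2 the call in the coding fit was lost (adjusted p = 0.0672 and 0.133 by limma), with a change of 0.32 and 0.28.

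Syn2, the most abundant synapsin, was at 99.9 and 99.4 scaled TPM in shLAC and at 103 and 109 in shCTCF. Its values separated by little, and its log2 fold change was 0.09 (limma adjusted p = 0.415), with 0.13 when shCTCF replicate 1 was omitted and 0.0438 when shCTCF replicate 2 was. Syn3, expressed early in neuronal development, was at 5.70 and 5.97 in shLAC and at 7.07 and 8.37 in shCTCF. The shCTCF libraries differed from each other by more than the shLAC libraries did, and the log2 fold change of Syn3 was 0.35 (standard error 0.0889, adjusted p = 0.155 by limma). In the coding fit Syn3 had an adjusted p of 0.0632 by limma. With 1 library left out, its change in that fit ran from 0.24 to 0.46.

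Each synapsin gene holds a gene for a tissue inhibitor of metalloproteinases within its span, on the opposite strand. Timp1 lies inside Syn1 and shares no exonic base with it, and was below 0.5 TPM in every library. Timp4 lies inside Syn2 and shares 90 nt, 1.28% of the exonic length of Syn2, and was between 2.88 and 4.34 TPM. Timp3 lies inside Syn3 and shares 1733 nt, 14.1% of the exonic length of Syn3, and was at 3.59 and 2.38 TPM in shLAC and at 3.99 and 3.52 TPM in shCTCF. The sources used here do not say whether reads were counted by strand, so the Syn3 level is uncertain where it overlaps Timp3. Syp shares 16.8% of its exonic length with the antisense gene Gm14703, and Syt4 14.5% with Gm26658, both below 1 TPM in every library.

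Vesicle membrane proteins showed no common direction. Syp, at 233 and 234 scaled TPM in shLAC and 229 and 235 in shCTCF, overlapped between groups, and the 95% interval of its log2 fold change ran from -0.14 to 0.11. The Sv2 genes encode transporter-like glycoproteins of the vesicle. Sv2a, the widespread form, was at 46.3 and 47.9 in shLAC and at 45.2 and 46.1 in shCTCF, a small gap with both shCTCF values lower. Sv2b was at 66.8 and 62.7 in shLAC and at 56.7 and 56.5 in shCTCF, 87.4% of control. Both shCTCF values of Sv2b lay below both shLAC values, with a log2 fold change of -0.19 (standard error 0.0501, adjusted p = 0.160 by limma). As deposited, the Sv2b groups overlapped and its change was 0.01, beside a median of 0.17 for all tested genes. Sv2c was at 8.15 and 7.52 in shLAC and at 7.89 and 8.22 in shCTCF, so that its groups overlapped.

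Synaptotagmins differ in calcium affinity and in the speed of release they trigger. Syt1, the main sensor of fast release in cortex, was at 139 and 142 scaled TPM in shLAC and at 149.5 and 148 in shCTCF, 106% of control, a log2 fold change of 0.08 (standard error 0.0436, adjusted p = 0.368 by limma). Syt7, a high-affinity sensor of asynchronous release and facilitation, was at 16.4 and 16.8 in shLAC and at 19.3 and 21.2 in shCTCF. Both shCTCF values of Syt7 were above control, at 122% on average. This is a log2 fold change of 0.27 (standard error 0.0620, adjusted p = 0.132 by limma), and the coding fit gave an adjusted p of 0.0525 by limma. Syt5 was at 44.7 and 43.95 in shLAC and at 45.95 and 48.25 in shCTCF. Syt4, an atypical form with impaired calcium binding that is found on dense-core vesicles, was at 44.0 and 42.4 in shLAC and at 42.5 and 42.6 in shCTCF. Syt5 lay above control in both knockdown libraries by a margin smaller than that of Syt7, and Syt4 overlapped.

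The SNARE genes lay on both sides of control. Snap25 was at 262 and 263 scaled TPM in shLAC and at 246 and 239 in shCTCF, 92.3% of control. Both shCTCF values were lower, with a log2 fold change of -0.11 (standard error 0.0479, adjusted p = 0.284 by limma) and a 95% interval from -0.24 to 0.01. As deposited, Snap25 had a positive change of 0.09, beside a median of 0.17 for all tested genes, and its groups overlapped. Vamp2, the vesicle SNARE synaptobrevin 2 of most forebrain synapses, was at 75.6 and 85.4 in shLAC and at 91.1 and 88.25 in shCTCF. This is 111% of control, with both shCTCF values higher. The shLAC libraries differed more than the shCTCF libraries, and the log2 fold change of Vamp2 was 0.16 (standard error 0.0723, adjusted p = 0.322 by limma). It was 0.0705 without shLAC replicate 1 and 0.24 without shLAC replicate 2. Vamp1, its paralog, was at 4.05 and 3.41 in shLAC and at 3.72 and 4.185 in shCTCF. Stx1a, syntaxin 1A of the plasma membrane, was at 47.1 and 48.0 in shLAC and at 46.4 and 47.6 in shCTCF. Vamp1 and Stx1a overlapped between groups.

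Rab3 GTPases sit on vesicles and bind RIM at the active zone. Rab3a, the dominant brain form, was at 147 and 146 scaled TPM in shLAC and at 156 and 155 in shCTCF, higher by 0.09 on the log2 scale (standard error 0.0428, adjusted p = 0.351 by limma). Rab3b was at 23.3 and 26.6 in shLAC and at 20.7 and 21.4 in shCTCF, the lowest share of control among the tested release genes at 84.4%. Knockdown libraries of Rab3b were under either control, by a log2 fold change of -0.23 (standard error 0.0763, adjusted p = 0.215 by limma). The Rab3b change was -0.14 without shLAC replicate 2 and -0.32 without shLAC replicate 1. Rab3c was at 35.3 and 36.6 in shLAC and at 35.65 and 33.8 in shCTCF, with overlapping groups.

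In 4 of 5 active zone scaffold genes both shCTCF values lay above both shLAC values, beside 26.9% of all tested genes. Rims3 (ENSMUSG00000032890, chromosome 4, 120854816 to 120896579, + strand, GRCm38) encodes a short RIM protein that lacks the Rab3-binding part of RIM1. It was at 3.73 and 3.12 TPM as deposited in shLAC and at 5.46 and 5.23 TPM in shCTCF. After scaling it was at 3.58 and 3.75 in shLAC and at 4.98 and 4.97 in shCTCF, 136% of control, and replicates nearly coincided. Its log2 fold change was 0.36 (standard error 0.0548, adjusted p = 0.0798 by limma) in the whole table and 0.36 (standard error 0.0628, adjusted p = 0.0269 by limma) in the coding fit. The call in the coding fit was lost without shCTCF replicate 1 or shCTCF replicate 2 (adjusted p = 0.101 and 0.138 by limma), with the change at 0.36 in each.

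Rims1, the large RIM that binds Rab3 and the priming factors, was at 15.6 and 15.25 scaled TPM in shLAC and at 17.5 and 16.3 in shCTCF (log2 fold change 0.13, limma adjusted p = 0.297; 0.0795 without shCTCF replicate 1). Rims2 was at 7.40 and 6.97 in shLAC and at 7.47 and 6.80 in shCTCF, and its groups overlapped. Bsn and Pclo encode Bassoon and Piccolo, giant scaffolds of the active zone. Bsn was at 13.75 and 10.8 in shLAC and at 15.5 and 15.0 in shCTCF, so that the shLAC libraries lay farther apart than the nearest values of the groups. The fitted log2 fold change was 0.30 (standard error 0.118, adjusted p = 0.266 by limma). It was 0.46 without shLAC replicate 1 and 0.14 without shLAC replicate 2. Pclo was at 14.75 and 15.2 in shLAC and at 15.6 and 16.2 in shCTCF, a narrow gap with both shCTCF values higher.

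Priming factors of the Munc13 family open syntaxin for SNARE assembly. Unc13a, the main forebrain form, was at 29.7 and 28.8 scaled TPM in shLAC and at 32.0 and 32.8 in shCTCF, 111% of control. Its log2 fold change was 0.14 (standard error 0.0440, adjusted p = 0.195 by limma). Unc13b was at 2.97 and 2.88 in shLAC and at 2.49 and 2.64 in shCTCF, 87.6% of control (log2 fold change -0.14, limma adjusted p = 0.303). The paralogs thus lay on opposite sides of control in all libraries. As deposited the Unc13b change was 0.01, beside a median of 0.17 for all tested genes. Unc13a shares 3.92% of its exonic length with the opposite-strand gene Colgalt1.

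Complexins clamp and promote SNARE-driven fusion. Cplx1 was at 50.45 and 53.9 scaled TPM in shLAC and at 56.3 and 52.85 in shCTCF, with overlapping groups. Cplx2, the more abundant in these cultures, was at 81.1 and 91.8 in shLAC and at 103.5 and 102 in shCTCF, 119% of control. Both shCTCF values of Cplx2 were higher, with a log2 fold change of 0.25 (standard error 0.0727, adjusted p = 0.186 by limma). This change was 0.16 without shLAC replicate 1 and 0.33 without shLAC replicate 2.

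The vesicular glutamate transporters load glutamate into vesicles and mark excitatory terminals. Slc17a7, which encodes VGLUT1 of cortical neurons, was at 75.7 and 67.7 scaled TPM in shLAC and at 88.1 and 82.8 in shCTCF, 119% of control. The log2 fold change was 0.25 (standard error 0.0730, adjusted p = 0.180 by limma), and the coding fit gave an adjusted p of 0.0721 by limma. Slc17a6, which encodes VGLUT2 of thalamic and early cortical neurons, was at 3.92 and 3.87 in shLAC and at 4.68 and 4.47 in shCTCF, 117% of control. Its log2 fold change was 0.19 (standard error 0.0553, adjusted p = 0.186 by limma). In both transporters the shCTCF values lay above both shLAC values, as in 26.9% of all tested genes. The ratio of Slc17a7 to Slc17a6 within a library stayed between 17.5 and 19.3.

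Retrieval genes were near control. Dnm1, the neuronal dynamin that cuts vesicles from the membrane, was at 74.25 and 73.4 scaled TPM in shLAC and at 78.3 and 77.7 in shCTCF. This is a log2 fold change of 0.08 (standard error 0.0408, adjusted p = 0.369 by limma). Amph, amphiphysin, which recruits dynamin, was at 53.6 and 52.8 in shLAC and at 51.45 and 53.6 in shCTCF, with overlapping groups. By step, the summed scaled TPM of shCTCF stood at 119% of control for the glutamate transporters, 113% for complexins, 112% for active zone scaffolds and 110% for synapsins. It stood at 97.1% for SNAREs and 96.8% for vesicle membrane proteins. As deposited all 8 of their genes had positive changes, as did 11151 of all 12816 tested genes. Abundant genes dominate these sums, and no test was made on them.

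Ratios between related genes within 1 library are nearly free of library scale, and 12 pairs were compared on log2(scaled TPM + 1). Plain ratios printed below are of scaled TPM without the added 1. The log2 differences include it, so they are not the log2 of the plain ratios, above all for low genes such as Unc13b. With 2 against 2 libraries an exact 2-sided permutation test cannot give a p below 0.333 (0.444 adjusted over the 12 pairs), so no pair could pass. The Unc13a to Unc13b ratio was 9.97 and 9.99 in shLAC and 12.9 and 12.4 in shCTCF, a log2 difference of 0.28. Syn1 was at 0.234 and 0.226 of Syn2 in shLAC and at 0.273 and 0.263 in shCTCF, a log2 difference of 0.21. The Syt1 to Syt7 ratio was 8.49 and 8.46 in shLAC and 7.76 and 6.99 in shCTCF, a log2 difference of -0.19. In these 3 pairs the groups did not overlap and the knockdown libraries held more Unc13a, Syn1 and Syt7 relative to the paired gene. Cplx1 was at 0.622 and 0.587 of Cplx2 in shLAC and at 0.544 and 0.520 in shCTCF, a log2 difference of -0.18. Sv2a was at 0.693 and 0.763 of Sv2b in shLAC and at 0.797 and 0.816 in shCTCF. The groups overlapped for Vamp2 to Vamp1, Bsn to Pclo and Slc17a7 to Slc17a6. The 4 other pairs differed by 0.10 to 0.14 on the log2 scale, without overlap.

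**Figure D4:**
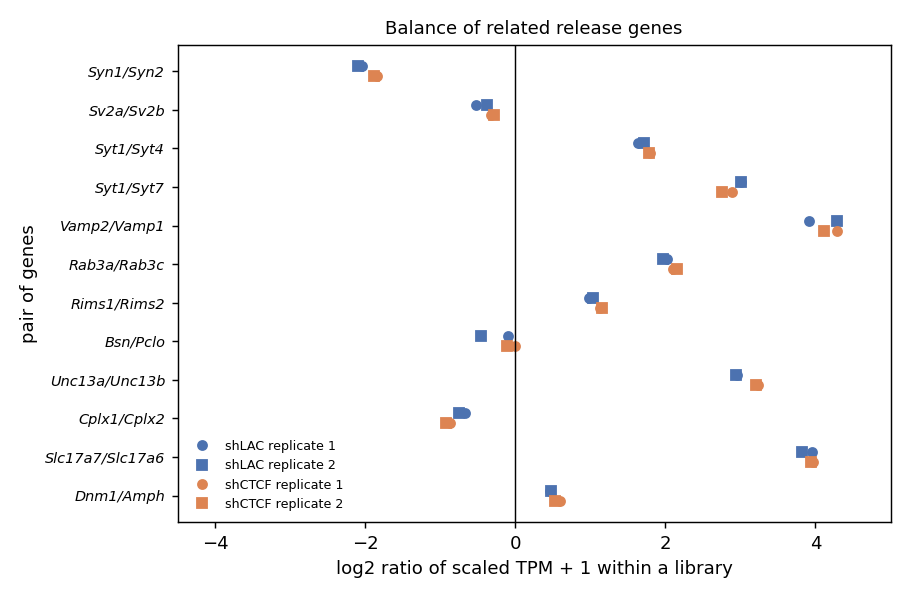
Log2 ratio of scaled TPM + 1 between 2 related release genes within each of the 4 libraries (x axis), for 12 pairs (y axis). Unc13a/Unc13b was at 2.95 and 2.94 in shLAC and at 3.24 and 3.21 in shCTCF, while Slc17a7/Slc17a6 overlapped between groups.

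Other genes of the vesicle cycle were taken from a list of 77 chosen by function. Of these, 74 were tested, 0 were called by limma over all tested genes, and at an unadjusted p below 0.05 12 were higher and 3 lower, again beside 10% of all tested genes each way. The median log2 fold change was 0.05, with 50 of 74 above 0. Both knockdown values were above both controls in 39.2% of the 74 and below in 17.6%, beside 26.9% and 26.1% of all tested genes. In the coding fit 3 of the 74 rose and 1 fell, beside 2.58% of coding genes called higher and 3.48% called lower. These calls changed when a library was left out. Ppfia4, a liprin-alpha of the active zone, went from 4.29 and 3.50 TPM to 6.52 and 6.32 TPM, with a log2 fold change of 0.44 (standard error 0.0598, adjusted p = 0.0132 by limma) in that fit. The transporter of GABA into vesicles, Slc32a1, which is also among the GABAergic markers, rose by 0.36 (limma adjusted p = 0.0462). Atp6v1g2, a neuronal subunit of the proton pump that energises vesicle filling, fell by 0.26 on the log2 scale (limma adjusted p = 0.0493), though its groups overlapped as deposited. Among 10 pump genes 6 had a negative fold change, with a median of -0.04. As deposited 9 were positive and the median was 0.16, beside 0.17 for all tested genes. The other steps had positive medians, from 0.03 in the 8 active zone genes to 0.14 in the 2 tested transporters. Of these 2 transporters, Slc32a1 had a positive change and Slc18a2 a negative one (-0.08 over all tested genes).

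The signed log2 fold change did not follow level or gene length closely among the release genes. Across the 31 tested genes, which share the same 4 libraries, the log2 fold change had Pearson r = -0.21 and Spearman rho = -0.17 with log2 mean TPM. With gene span on a log10 scale r was -0.11 and rho -0.15. Over the 11268 coding genes these r were 0.02 and 0.04.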

How the data were processed

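The deposited files gave TPM per Ensembl gene, 1 file per library, for 37437 genes. RSEM 1.2.28, CASAVA and mm10 are named in the submitters' processing notes; not given in the sources used here: annotation, aligner settings, strandedness. TPM is relative to a fixed total, so abundant RNA lowers other genes, and depth is lost. Symbols and positions came from GENCODE vM21 (37060 identifiers matched). Genes with at least 1 TPM in 2 libraries were scaled by median ratio and fitted as log2(TPM + 1) with limma 3.58.1 (R 4.3.3), a trended prior, no covariate, at an adjusted p of 0.05. This scale understates changes of low genes. The coding fit left out the 13 satellite-like genes and was scaled alone. Fits were checked on simulated data. All 33 members are named; statistics went to called genes, each step's most abundant gene and both glutamate transporters, with others given after their values were seen. Of the other release genes, those called were named, except 1 that is not reported here. Members and lists were chosen with earlier results of these data known. Alternatives are in the closing section.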

Additional observations from a re-analysis of the deposited data

How the results depend on the processing

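Among the release genes, 0 were called in either direction under each alternative to the fit over all tested genes: values as deposited, upper-quartile scaling, no filter, a mean of at least 5 TPM, a pseudocount of 0.1, no trend, the replicate block and each library left out. The filter at 5 TPM removes Rims3, Slc17a6, Vamp1 and Unc13b, so it tells nothing of these 4. At an adjusted p below 0.1, 2 were called higher, beside 224 higher and 313 lower among all tested genes. The coding fit called 2 higher, and 6 higher and 1 lower at an adjusted p below 0.1, a threshold added after the data were seen at which 5.24% and 6.30% of coding genes were called. With 1 library left out, where a group of 1 is taken to vary like the other, the number called in the coding fit changed. It changed among the release genes and over the whole table alike. Other release genes called were 3 higher and 1 lower in the coding fit, and 1 higher at an adjusted p below 0.1. Their number in the coding fit also changed with a library left out.

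Of all tested genes 47 were called higher and 87 lower. There were 246 higher in deposited values, 291 higher and 392 lower by the coding fit, 11 and 13 with no filter, 22 and 39 for genes averaging 5 TPM or more, and 224 and 313 at an adjusted p below 0.1. Leaving out a library gave 0 to 58 higher and 7 to 84 lower. In the coding fit it gave 520 and 611 without shLAC replicate 1, 459 and 563 without shLAC replicate 2, 106 and 210 without shCTCF replicate 1. Omitting shCTCF replicate 2 there gave 46 and 102. As deposited, 68.0% of calls were higher, against 35.1%.

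No label ties replicate 1 of one group to replicate 1 of the other. The difference between replicates correlated across groups at r = 0.0817 over tested genes and 0.246 over coding genes. The replicate block gave 5 higher and 9 lower genes over the whole table. In the coding fit, where it was added after the data were seen, it called 597 genes higher and 716 lower, among them 7 and 1 of the 33 release genes and 6 and 1 of the other release genes.

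As deposited, the median log2 fold change of all tested genes was 0.17. There the change reversed to 0.19 in Syp, 0.16 in Sv2a, 0.0111 in Sv2b, 0.18 in Syt4, 0.0900 in Snap25, 0.18 in Stx1a, 0.15 in Rab3c, 0.17 in Rims2, 0.00820 in Unc13b and 0.18 in Amph, none past the threshold. With a library left out of the fit over all tested genes, the change ran from -0.0278 to 0.0103 in Syp, -0.0181 to 0.0874 in Sv2c, -0.0503 to 0.00695 in Syt4, -0.0324 to 0.17 in Vamp1, -0.0336 to 0.00463 in Stx1a, -0.0651 to 0.0516 in Rims2 and -0.0444 to 0.0154 in Amph. In the coding fit the sign also turned without shLAC replicate 1 in Syt4 (0.00748) and Rims2 (0.0294), without shLAC replicate 2 in Sv2c (-0.00826), Vamp1 (-0.0235) and Stx1a (0.00364), without shCTCF replicate 1 in Syp (0.0152), Stx1a (0.00946) and Amph (0.0202), and without shCTCF replicate 2 in Rims2 (0.0540). The difference in ratio ran from -0.0952 to 0.27 for Vamp2 to Vamp1 and from -0.00650 to 0.14 for Slc17a7 to Slc17a6. The promoter search on the strand of the gene alone found the CTCF core in 3 release genes and the left part of RE1 in 1. TPM holds no depth, so what depth limits could not be computed.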

Other observations

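Within the Pclo gene, GENCODE lists loci on the same strand that share no exonic base with it. Of these, Gm42445 was at 78.2 and 87.8 TPM in shLAC and at 91.9 and 88.8 TPM in shCTCF, and Gm43663 at 86.5 and 110.11 TPM in shLAC and at 105.8 and 99.0 TPM in shCTCF, where Pclo itself was between 12.7 and 17.1 TPM.

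Among the pan-neuronal markers, Rbfox3, the antigen NeuN of mature neurons, and Elavl4, a neuronal RNA-binding protein, moved in opposite directions in the coding fit. Rbfox3 was at 23.0 and 18.6 TPM in shLAC and at 30.1 and 27.0 TPM in shCTCF (log2 fold change 0.25, limma adjusted p = 0.0461). Elavl4 was at 12.7 and 10.3 TPM in shLAC and at 9.87 and 8.46 TPM in shCTCF (log2 fold change -0.47, limma adjusted p = 0.0141). Over all tested genes neither passed (limma adjusted p = 0.119 and 0.0697).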
